A study of Mus musculus with 5 samples.

Results

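High myopia that runs in families has been linked to changes in a small number of genes, and the mouse orthologs of 9 of them are described here: Aplp2, Lrpap1, Lrp2, P4ha2, P3h2, Cpsf1, Zfp644, Sco2 and Slc39a5. They were chosen by symbol for their link to inherited high myopia, and no measured value enters the rule. Earlier results of these data were known when they were chosen. Each symbol was found in a single row among the 33635 gene identifiers of the count table. All 9 passed the count filter that left 17432 genes for testing. Retinas of wild-type male C57BL/6J mice, an inbred laboratory strain, were collected at P42 and sequenced as polyA RNA. In form-deprivation myopia (FDM), a diffuser goggle blurred the image in the right eye for 2 weeks from P28, and the uncovered left eye served as the contralateral control. The libraries came from 2 FDM eyes and 3 control eyes, so each control eye belonged to an animal that also wore a goggle. FDM 1 and Control 1 came from one mouse and FDM 3 and Control 3 from another, while Control 2 had no partner. The second FDM library carries the number 2 in the sample labels and 3 in the count table and in the sequencing metrics of the study, and the latter is used. The labels give refractive errors at P42 of 0.976 and 0.2745 for the FDM eyes, and of 2.4455, 3.1505 and 2.465 for Control 1, 2 and 3, in dioptres.

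These genes have little in common in their cellular roles. Lrp2 (megalin) is a large endocytic receptor of the LDL receptor family, known in the eye from the retinal pigment epithelium (RPE) and the ciliary epithelium, and Lrpap1 is the chaperone that escorts such receptors through the endoplasmic reticulum. P4ha2 and P3h2 encode enzymes that hydroxylate prolines of collagen chains. Cpsf1 encodes the largest subunit of the complex that recognises the polyadenylation signal of pre-mRNA, and Zfp644 a zinc finger protein that acts with histone H3 lysine 9 methyltransferases. Sco2 encodes a copper chaperone needed to assemble cytochrome c oxidase, Slc39a5 a zinc importer best known from intestine and pancreas, and Aplp2 a membrane protein related to the amyloid precursor protein. In animal models the retina sends the signals that set the growth of the sclera, which is why the retinal level of such genes under form deprivation is of interest.

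Totals ran from 40599047 to 56534931 estimated counts per library, so that the limit of detection used here, 3 counts, corresponded to 0.0531 to 0.0739 CPM. CPM are counts scaled to the TMM-adjusted total of the library. Photoreceptor, inner retinal and Müller glial markers were present in every library, with 6 of 6, 8 of 8 and 4 of 4 listed genes over 10 counts. Other tissues were unequal between the libraries. The 14 RPE markers summed to 128, 121 and 124 CPM in FDM 1, FDM 3 and Control 1, against 367 in Control 2 and 387 in Control 3. The 9 lens markers found summed to 1678 CPM in FDM 3 and to between 2.31 and 18.8 CPM in the other 4 libraries, and the 6 skeletal muscle markers to 59.5 CPM in Control 3 and to between 9.24 and 10.7 CPM elsewhere. Blood markers lay between 33.0 and 47.6 CPM, endothelial and pericyte markers between 273 and 321 CPM, and corneal and conjunctival markers between 0.738 and 1.56 CPM. In bulk tissue, fewer cells of a type and less RNA per cell cannot be told apart.

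The promoters of the most abundant gene, of the least abundant and of the most variable between libraries are shown for comparison. Each line gives 100 bases directly upstream of the outermost annotated start, 5′ to 3′ on the minus strand of GRCm38.p6, from RefSeq's promoter sequences, with CG dinucleotides in capitals.
Aplp2, chr9:31211849-31211948: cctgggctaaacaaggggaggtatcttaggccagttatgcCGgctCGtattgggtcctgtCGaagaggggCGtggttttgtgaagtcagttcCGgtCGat
Lrp2, chr2:69586066-69586165: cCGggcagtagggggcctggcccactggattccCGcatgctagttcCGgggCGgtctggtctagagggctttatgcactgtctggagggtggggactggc
Slc39a5, chr10:128401230-128401329: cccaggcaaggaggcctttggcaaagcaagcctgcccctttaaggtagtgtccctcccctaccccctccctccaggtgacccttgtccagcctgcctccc
The Slc39a5 window held 0 CG dinucleotides, against 6 in the Aplp2 and 4 in the Lrp2 window. Over the 250 bases before each listed start site, Aplp2 held 22 CG dinucleotides and Lrp2 18, while the pair of Slc39a5 start sites held 0 and 3. The median over 32536 mouse promoter windows of that length was 6, with quartiles of 2 and 16. Fewer CG than in the Aplp2 window were found in 85.1% of these windows, and fewer than in the Lrp2 window in 78.2%. Promoters were matched for 7 of the 9 genes. P4ha2 held 21 CG, Sco2 29, Lrpap1 14, and the listed start sites of Zfp644 6 and 39. These counts describe the sequence and were not related to the measurements by a test.

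Levels of different genes were compared per length, as counts per kilobase of annotated exon scaled to a fixed sum in each library (TPM). Aplp2 (chromosome 9 of GRCm38, 31149557 to 31211815) was by far the most abundant, at 608 ± 10.5 TPM (SD, n = 5 libraries), above 99.2% of the genes tested that have an annotated length. Lrpap1 (chromosome 5, 35091501 to 35105766) followed at 118 ± 2.60 TPM and Cpsf1 (chromosome 15, 76595803 to 76607591) at 69.6 ± 7.97 TPM (SD, n = 5 each). A middle group lay close to the median of the tested genes. It comprised P4ha2 (chromosome 11, 54100095 to 54131665) at 15.2 ± 1.10 TPM, Zfp644 (chromosome 5, 106616739 to 106697287) at 12.9 ± 2.40 TPM, P3h2 (chromosome 16, 25959288 to 26105784) at 9.59 ± 0.502 TPM and Sco2 (chromosome 15, 89371637 to 89373846) at 9.12 ± 0.857 TPM (SD, n = 5 each). Within it, P4ha2 and Zfp644 overlapped over the 5 libraries, as did P3h2 and Sco2. Lrp2 (chromosome 2, 69424340 to 69586065) stood at 3.62 ± 1.47 TPM and Slc39a5 (chromosome 10, 128395931 to 128401229) at 0.344 ± 0.0884 TPM (SD, n = 5 each), the latter above only 3.07% of the genes tested. Apart from the P4ha2 to Zfp644 and P3h2 to Sco2 neighbours, no neighbours in this order overlapped in any library.

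**Figure D1:**
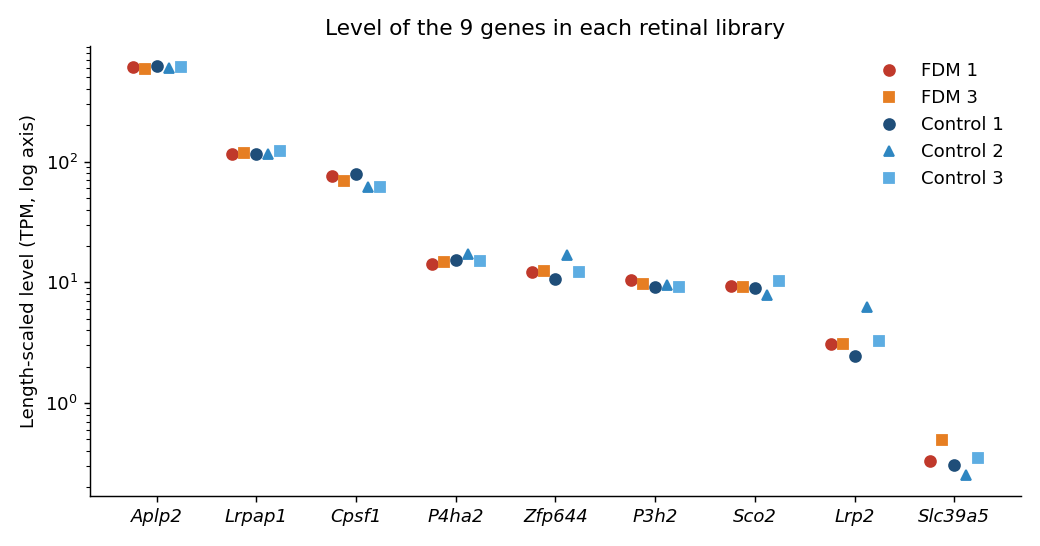
Length-scaled level of the 9 genes (vertical log axis, TPM) in each of the 5 retinal libraries, with 1 point per library and the genes ordered by their mean. Aplp2 lies near 608 TPM and Slc39a5 near 0.344 TPM, and the points of Lrp2 and Zfp644 spread upwards through Control 2.

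No gene of the 9 was called as different between FDM and control eyes. At the unadjusted p of 0.05 that the study used, 0 of the 9 passed in edgeR's quasi-likelihood test, against 281 genes, or 1.61%, of all genes tested (0.453% higher and 1.16% lower in FDM eyes). DESeq2's Wald test called 0 of the 9 and 0.987% of all genes, and limma called 0 of the 9 and 1.72% of all genes. After Benjamini-Hochberg adjustment over all genes tested, 0 genes passed in edgeR without a block and 3 in DESeq2, none of them among the 9. The adjusted p of each of the 9 was 0.99999 in that edgeR test. SE stands for the standard error of the log2 fold change. At so low a background a count of 0 among 9 genes says little, so the sizes that the data allow are given for each gene. Estimated log2 fold changes, FDM minus control, were above 0 for 4 and below 0 for 5 of the genes, with a median of -0.04 beside -0.01 over all genes tested. Over all 5 libraries, the 95% interval of the fold change left out 1.5-fold in either direction for 7 of the 9 genes. The exceptions were Lrp2 and Slc39a5. This bound rested on single libraries. Without Control 3 the interval of Zfp644 passed 1.5-fold, from -0.68 to 0.36 on the log2 scale. With either FDM library dropped, the intervals of Zfp644 and Sco2 passed it as well. With the mouse as a block, which raised the share called among all genes to 7.23%, 0 of the 9 were called. Control 2, which has no partner, does not enter that comparison of eyes. The block gave 54 genes an adjusted p under 0.05, and the smallest edgeR adjusted p among the 9 was 0.729. FDM eyes were always right eyes and control eyes left eyes, so treatment and side cannot be told apart.

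**Figure D2:**
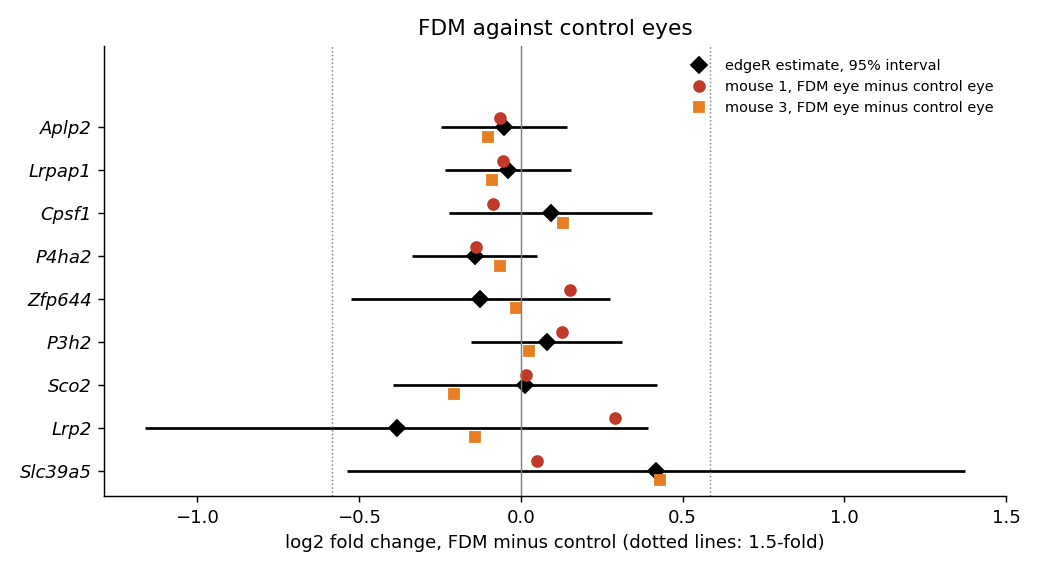
Log2 fold change, FDM minus control, for the 9 genes: black diamonds and lines are the edgeR estimate and its 95% interval over 2 FDM and 3 control libraries, and coloured points are the differences between the eyes of mouse 1 and of mouse 3. Every interval includes 0, and only those of Lrp2 and Slc39a5 pass the dotted lines at 1.5-fold.

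The receptor Lrp2 was the least steady of the 9 genes, with a 2.43-fold range over the libraries, wider than that of 94.1% of the genes tested. FDM 1 and FDM 3 held 638 and 710 Lrp2 counts, and the controls held 480, 1665 and 773 in the order of their numbers. On the CPM scale these libraries stood at 14.7 and 14.8 for FDM, and at 12.0, 29.2 and 16.3 for Control 1, 2 and 3. The FDM libraries were nearly equal and lay among the controls, and Control 2 stood apart from the other 4 libraries. It averaged 14.7 ± 0.0320 CPM over FDM eyes (SD, n = 2) and 19.2 ± 8.95 CPM in control eyes (SD, n = 3). This gave a log2 fold change of -0.38 (SE 0.33, edgeR, unadjusted p = 0.283), with a 95% interval from 0.447-fold to 1.31-fold. Its direction rested on Control 2, since without that library the value was 0.07 (edgeR, unadjusted p = 0.680, with 3.16% of all genes called). Without Control 1, in turn, it was -0.63 with an edgeR p of 0.0386 (adjusted p = 0.829), in a fit that called 5.42% of all genes. A block for the mouse gave 0.06, and with a block by the numbers of the sample titles -0.37 (edgeR, unadjusted p = 0.0160, adjusted p = 1.0), where 2.52% of all genes were called. Between the eyes of mouse 1, Lrp2 was 1.22-fold higher in the FDM eye, and between those of mouse 3 it was 0.907-fold the control level.

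Control 2 and Control 3 also held more RPE marker RNA than the other libraries, as the sums above show. Rpe65, the RPE isomerase of the visual cycle, had 5.49, 4.51 and 5.36 CPM in FDM 1, FDM 3 and Control 1, and 27.9 and 23.6 CPM in Control 2 and Control 3. Lrp2 was 1.79-fold higher in Control 2 than in Control 3. Of the 14 RPE markers, 8 were likewise highest in Control 2, Rpe65 and the channel gene Trpm3 (74.7 CPM, against 45.4 in Control 3) among them. The other 6 were Best1 and the pigment genes Tyr, Tyrp1, Dct, Pmel and Mlana, which were highest in Control 3, and Dct, at 18.7 CPM in Control 2 and 76.9 in Control 3, gave that library its larger sum. The 3 tested genes outside all lists whose profile over the 5 libraries was most like that of Lrp2 were Gm10557, Lmbrd2 and Nhlrc2, with root mean square differences of 0.0347, 0.0425 and 0.0591 between centred log2 CPM values. Nhlrc2, for example, had 13.2 and 12.8 CPM in FDM 1 and FDM 3 and 10.7, 23.4 and 14.4 CPM in Control 1, 2 and 3. With 5 libraries such likeness is a description only.

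Lrp2 and Zfp644 were also the genes of this set with the longest annotated exon sequence, 16.7 and 14.0 kb, and exon length moved with Control 2 across the whole table. Of the 1474 tested genes with at least 10 kb of exon, 66.4% were highest in Control 2, compared with 14.8% of the 3049 genes under 2 kb. The median log2 deviation of Control 2 from the mean of the libraries rose from -0.05 under 2 kb to 0.18 at 10 kb and over. Lrp2 lay well beyond this, with a deviation of 0.82 in Control 2 that 0.611% of the long genes reached, and Zfp644 deviated by 0.38. At the other end, Sco2, with 1.25 kb of exon, deviated by -0.24 in Control 2 and had its lowest level there. Control 2 was the highest or lowest library for 8 of the 9 genes and for 62.3% of all genes tested. The part of exon length and of RPE RNA in the Lrp2 values was not tested.

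**Figure D3:**
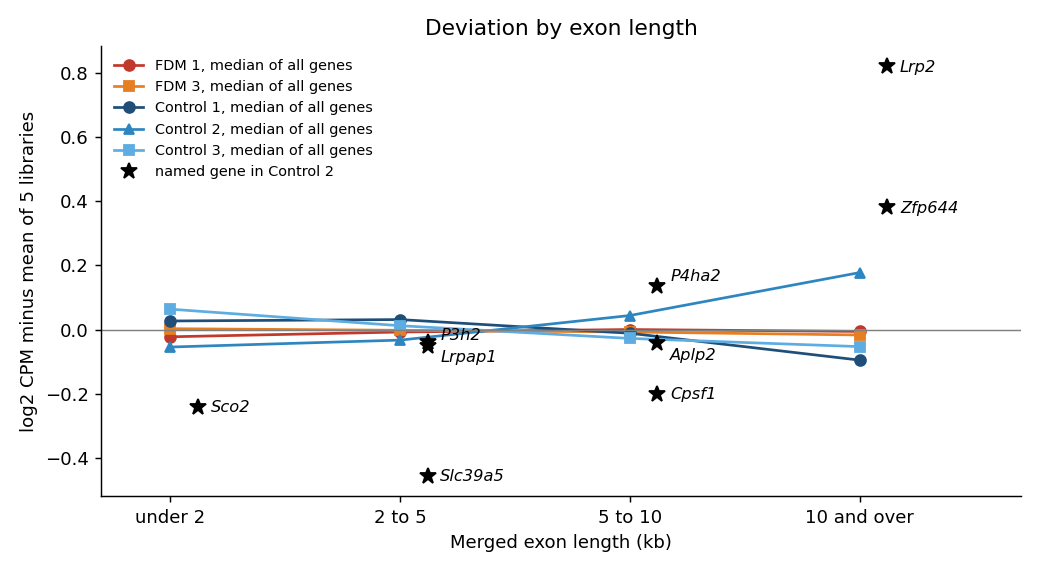
Log2 CPM minus the mean of the 5 libraries (vertical axis) by merged exon length in 4 classes (horizontal axis, kb): lines join the median of all tested genes in each library, and stars mark the 9 genes in Control 2. The Control 2 line ends at 0.18 for the longest genes, and Lrp2 stands above it at 0.82.

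Lrpap1, the chaperone of Lrp2 and its relatives, was among the steadiest genes measured. It had 137 and 141 CPM in FDM 1 and FDM 3, and 142, 136 and 150 CPM in Control 1, 2 and 3, so that the groups overlapped within a 1.10-fold range. Its log2 fold change was -0.04 (SE 0.08, edgeR, unadjusted p = 0.645), with a 95% interval from 0.850-fold to 1.11-fold. The sign turned to 0.04 when the factors of the authors' normalization were used. In CPM Lrpap1 was lowest in Control 2, where Lrp2 was highest, at 136 beside 137 in FDM 1. On the length-scaled level FDM 1 was the lowest, at 116.4 TPM beside 116.9 TPM in Control 2. Of the 14 other genes tested from the LDL receptor family and its adaptors, 1 was called higher and 0 lower. This was Amn, which encodes the membrane anchor of the cubilin complex, at 0.738 and 0.832 CPM in FDM 1 and FDM 3 and 0.426, 0.263 and 0.611 CPM in Control 1, 2 and 3 (edgeR, unadjusted p = 0.0458). The Amn call was lost in DESeq2 (unadjusted p = 0.102), with the authors' factors (edgeR, unadjusted p = 0.0716) and with the mouse as a block (edgeR, unadjusted p = 0.0916), where 0 of the 14 were called. The list had a median log2 fold change of -0.02, and the widely expressed receptor Lrp1 lay at 212 ± 14.3 CPM in FDM eyes (SD, n = 2) and 204 ± 17.3 CPM in control eyes (SD, n = 3).

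Of the collagen hydroxylases, P4ha2 came closest to the threshold. It had 1101 and 1270 counts in FDM 1 and FDM 3, and 1117, 1720 and 1310 counts in Control 1, 2 and 3. In CPM these were 25.4 and 26.4 against 28.0, 30.2 and 27.6, so that both FDM libraries lay below every control. It averaged 25.9 ± 0.713 CPM over FDM eyes (SD, n = 2) and 28.6 ± 1.39 CPM in control eyes (SD, n = 3). This gave a log2 fold change of -0.14 (SE 0.08, edgeR, unadjusted p = 0.126), with a 95% interval from 0.793-fold to 1.04-fold. It kept its sign without each library in turn, between -0.17 and -0.09. In CPM the FDM eye was lower than its partner in both mice, by 0.14 and 0.06 on the log2 scale. In the authors' normalized counts this did not hold in mouse 3, with 1279 in the FDM eye and 1271 in the control eye.

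P3h2 showed the reverse arrangement, with 11.0 and 10.3 CPM in the FDM libraries and 10.1 CPM in each of Control 1, 2 and 3. The difference was small, at a log2 fold change of 0.08 (SE 0.10, edgeR, unadjusted p = 0.446), and its 95% interval ran from 0.899-fold to 1.24-fold. Groups that did not overlap in CPM were found for these 2 of the 9 genes and for 10.6% of all genes tested, with 6.67% lower and 3.97% higher in both FDM libraries. In the authors' normalized counts neither separation held. There P4ha2 had 1166 and 1279 in the FDM libraries and 1241, 1496 and 1271 in the controls, and P3h2 had 572 and 443 against 485, 443 and 485. An antisense gene, Gm4524, overlaps 28.4% of the P3h2 exon sequence and has no row in the count table used here. Of the 12 other collagen hydroxylases and chaperones tested, 0 were called higher and 1 lower, with a median log2 fold change of -0.03. The gene called was P4ha3, a further catalytic subunit of the prolyl 4-hydroxylase, at 0.877 and 0.998 CPM in FDM 1 and FDM 3 and 1.53, 1.51 and 1.28 CPM in Control 1, 2 and 3 (log2 fold change -0.62, edgeR, unadjusted p = 0.0185). The P4ha3 call was lost in DESeq2 (unadjusted p = 0.0698) and with the authors' factors (edgeR, unadjusted p = 0.0568), and 2 of the 12, P4ha3 and the chaperone Serpinh1, were called lower with the mouse as a block. P4ha1, the main paralog of P4ha2 in many tissues, stood at 69.1 ± 10.4 CPM in FDM eyes (SD, n = 2) and 72.1 ± 9.26 CPM in control eyes (SD, n = 3).

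Zfp644 and Cpsf1, the genes with nuclear functions, differed more among the controls than between the groups. Zfp644 had 48.6 and 50.2 CPM in FDM 1 and FDM 3, and 43.8, 67.1 and 50.7 CPM in Control 1, 2 and 3, with the FDM libraries inside the control range. Its log2 fold change was -0.13 (SE 0.17, edgeR, unadjusted p = 0.485), with a 95% interval from 0.695-fold to 1.21-fold. This value turned to 0.07 without Control 2 and with the mouse as a block. These fits compare the same libraries, because Control 2 has no partner in the block. The excess in Control 2 was largely absent from the authors' normalized counts, where Zfp644 had 2298 and 2438 in FDM 1 and FDM 3 and 2185, 2576 and 2593 in Control 1, 2 and 3. The range over the libraries was 1.53-fold in CPM and 1.19-fold in these values. The factor that the authors' normalization applied to Zfp644 in Control 2 was 1.22 times the median factor of that library. Over the 5 libraries this relative factor had a 1.34-fold range for Zfp644, beyond the 95th percentile of 1.19-fold over 7559 well covered genes, those above 1000 counts in all 5 libraries. The same factor had a 1.19-fold range for Lrp2, which still spread 2.07-fold after it. Of the 3 genes tested from the H3K9 methyltransferase complex, 0 were called, and the smallest p was that of Ehmt1, at a log2 fold change of 0.07 (edgeR, unadjusted p = 0.468).

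Cpsf1 had 123 and 113 CPM in FDM 1 and FDM 3, and 131, 98.4 and 103 CPM in Control 1, 2 and 3. Control 1 was the highest library and FDM 1, from the same mouse, the next, while both other controls lay lowest. The log2 fold change was 0.09 (SE 0.13, edgeR, unadjusted p = 0.514), with a 95% interval from 0.857-fold to 1.32-fold. Without Control 1 it was 0.23 with an edgeR p of 0.0381 (adjusted p = 0.829), in the same fit that called 5.42% of all genes. Within mice the sign differed, at 0.942-fold in mouse 1 and 1.09-fold in mouse 3. Of the 17 other genes of mRNA 3′ end processing tested, 0 were called in either direction, with a median log2 fold change of 0.03. The block for the mouse called 1 of the 17, Cstf2, higher. Cstf2 was highest in Control 2, which does not enter that comparison, at 57.6 CPM against 50.8 and 47.5 CPM in FDM 1 and FDM 3. The smallest p in this list was that of Cpsf4l, at a log2 fold change of 0.24 (edgeR, unadjusted p = 0.233).

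**Figure D4:**
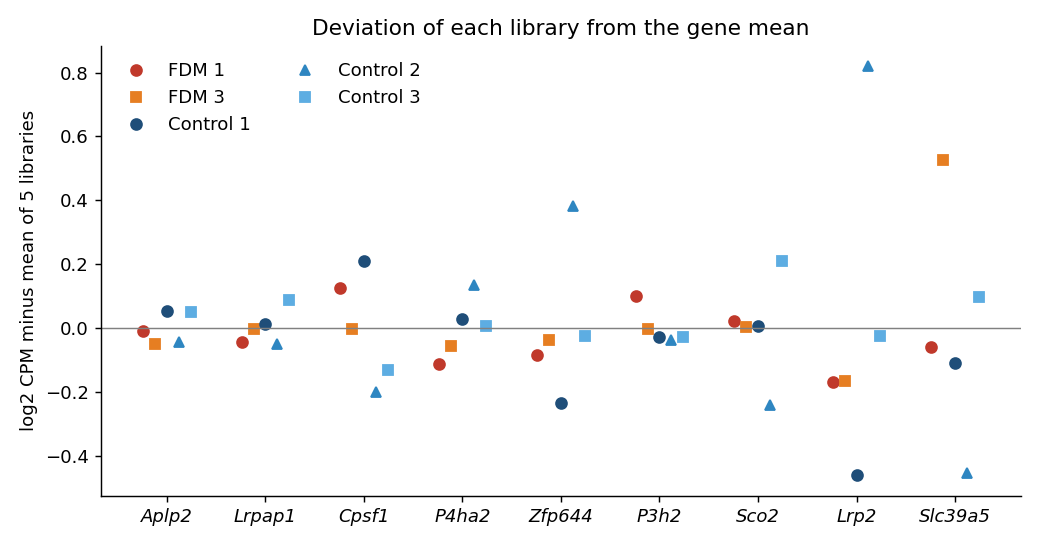
Log2 CPM minus the gene's mean over the 5 libraries (vertical axis) for the 9 genes, ordered by length-scaled level, with 1 point per library. Lrp2 and Zfp644 are highest in Control 2, at 0.82 and 0.38, and Slc39a5 is highest in FDM 3, while the FDM and control points of the other genes are interleaved or close together.

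Aplp2 reached 44451 and 47979 counts in FDM 1 and FDM 3 and 42794, 57180 and 50782 counts in Control 1, 2 and 3. Scaled to the libraries, these were 1025, 998, 1072, 1003 and 1069 CPM, a 1.07-fold range that 4.16% of the genes tested undercut. Control 2 lay between the FDM libraries, so the groups overlapped. The log2 fold change was -0.05 (SE 0.08, edgeR, unadjusted p = 0.555), and the 95% interval ran from 0.843-fold to 1.10-fold. In CPM the FDM eye was slightly lower in both mice, at 0.957-fold and 0.933-fold the control eye. In the authors' normalized counts mouse 1 went the other way, with 48245 in the FDM eye and 47847 in the control eye. The Aplp2 relatives App and Aplp1 had log2 fold changes of -0.01 and -0.08 (edgeR, unadjusted p = 0.932 and 0.455). Among the 14 other genes tested of this family and the secretases that cleave it, 0 were called higher and 1 lower, with a median log2 fold change of -0.06. This was the protease Bace2, at 0.554 and 0.624 CPM in FDM 1 and FDM 3 and 0.476, 2.00 and 2.72 CPM in Control 1, 2 and 3 (edgeR, unadjusted p = 0.0428). Bace2 was low in the 3 libraries with low RPE sums and high in the others. The block for the mouse called 3 of the 14 lower, namely Bace2, Aplp1 and the gamma-secretase subunit gene Psenen. Bace2 differed in sign between the mice, FDM against control eye, at 0.554 against 0.476 CPM in mouse 1 and 0.624 against 2.72 CPM in mouse 3.

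The remaining genes encode metal handling proteins. Sco2 had 145 and 159 counts in FDM 1 and FDM 3 and 132, 159 and 181 counts in Control 1, 2 and 3. In CPM these were 3.34 and 3.31 against 3.31, 2.79 and 3.81, so that the FDM libraries lay within the range of the controls. Its log2 fold change was 0.01 (SE 0.17, edgeR, unadjusted p = 0.948), with a 95% interval from 0.760-fold to 1.34-fold, and its sign turned with the authors' factors and without Control 2. The Sco2 counts carry a further uncertainty from the locus. Of its exon sequence, 68.3% is shared with Tymp on the same strand and 66.2% with Ncaph2 on the opposite strand, and the library kit does not mark strand. Ncaph2 had between 4916 and 6059 counts per library and Tymp between 102 and 140, and how far reads were shared among these genes was not tested. Among the 16 other cytochrome c oxidase assembly factors tested, 0 were called, with log2 fold changes between -0.07 and 0.12. The block for the mouse called 1 of the 16, Cox10, lower. Sco1, the closest relative of Sco2, averaged 16.5 ± 0.652 CPM over FDM eyes (SD, n = 2) and 16.8 ± 0.774 CPM in control eyes (SD, n = 3), and the smallest p was that of Taco1, an activator of Cox1 translation (edgeR, unadjusted p = 0.277).

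Slc39a5 was barely detected, with 9 and 15 counts in FDM 1 and FDM 3 and 8, 9 and 11 counts in Control 1, 2 and 3. It passed the count filter through FDM 3 and Control 3 alone. The exact Poisson 95% intervals of these counts, which cover counting error only, all overlapped, the highest count ranging from 8.40 to 24.7 and the lowest from 3.45 to 15.8. The log2 fold change of 0.42 (SE 0.41, edgeR, unadjusted p = 0.338) had a 95% interval from 0.689-fold to 2.59-fold, so that a 2-fold rise lay within what these counts allow. Its sign was the same in both mice and without each library in turn, where it ran from 0.09 to 0.67. Of the 26 other zinc transporters and metallothioneins tested, 0 were called higher and 2 lower, with a median log2 fold change of -0.04. These were the metallothionein Mt2 (14.3 and 13.7 CPM in FDM 1 and FDM 3, 15.4, 17.4 and 18.9 CPM in Control 1, 2 and 3, edgeR, unadjusted p = 0.0311) and the transporter Slc39a12 (1.55 and 1.37 CPM against 1.43, 3.39 and 3.54 CPM, edgeR, unadjusted p = 0.0409). Slc39a12, like Bace2, was high only in the libraries with high RPE sums. With the mouse as a block the Slc39a12 call was lost (edgeR, unadjusted p = 0.0510), and 3 of the 26 were called, Slc39a10 higher and Mt1 and Mt2 lower. Slc39a10 was highest in Control 2, which does not enter that comparison, at 39.5 CPM against 31.5 and 31.1 CPM in FDM 1 and FDM 3. Without the block its log2 fold change was -0.0084.

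Between the eyes of each mouse, the 9 genes moved by small amounts. In mouse 1 the log2 differences, FDM minus control eye, ran from -0.14 for P4ha2 to 0.29 for Lrp2. In mouse 3 they ran from -0.21 for Sco2 to 0.43 for Slc39a5. In CPM the sign was the same in both mice for 5 genes. Of these, Aplp2, Lrpap1 and P4ha2 were lower and P3h2 and Slc39a5 higher in the FDM eye. Lrp2, Zfp644, Cpsf1 and Sco2 differed in sign. In the authors' normalized counts Aplp2, Lrpap1, P4ha2 and P3h2 differed in sign as well. P3h2, for example, had 572 against 485 in mouse 1 and 443 against 485 in mouse 3. Only Slc39a5, higher in the FDM eye, and Sco2, lower there, kept 1 sign in both mice in those values. The refractive error of the control eye exceeded that of the FDM eye by 1.47 in mouse 1 and by 2.19 in mouse 3, and with 2 pairs no relation to expression could be tested.

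For other genes of inherited myopia, the number of calls depended on whether the eyes were paired. Of 12 further genes linked to high myopia, 0 were called higher and 1 lower, with a median log2 fold change of -0.04. The gene called was Tnfrsf21, a death receptor, at 622 and 771 counts in FDM 1 and FDM 3 and 661, 1230 and 1043 counts in Control 1, 2 and 3 (log2 fold change -0.40, edgeR, unadjusted p = 0.0251). The block for the mouse called 2 of the 12 lower, Tnfrsf21 and the protease gene Ctsh. The 6 genes of congenital stationary night blindness, a disorder of the photoreceptor to ON bipolar synapse that often comes with high myopia, had 0 calls and a median of 0.08. Their smallest p was that of Grm6, the glutamate receptor of ON bipolar cells (edgeR, unadjusted p = 0.304). The block called 2 of the 6 higher, Nyx and Lrit3, which encode leucine-rich repeat proteins of that synapse. Of 9 matrix genes of syndromic myopia, 0 were called higher and 1 lower, with a median of -0.31. This was Col18a1, a basement membrane collagen, at 25.8 and 32.7 CPM in FDM 1 and FDM 3 and 30.6, 54.3 and 49.8 CPM in Control 1, 2 and 3 (log2 fold change -0.62, edgeR, unadjusted p = 0.0350). Here the block called 6 of the 9, with Col11a1 higher and Col9a2, Col9a3, Col18a1, Fbn1 and Vcan lower. Col11a1, Nyx and Lrit3, called higher, were highest in Control 2, which does not enter that comparison, at 17.2, 19.0 and 63.9 CPM. In the edgeR fit without the block their log2 fold changes were -0.0046, -0.03 and 0.07. Fbn1 differed in sign between the mice, FDM against control eye, at 13.7 against 13.5 CPM in mouse 1 and 18.6 against 27.0 CPM in mouse 3. Over these 3 lists the block called 10 of 27 genes, beside 7.23% of all genes, and 0 of them had an adjusted p under 0.05 in that edgeR fit. For Col18a1 and Tnfrsf21, too, the high libraries were Control 2 and Control 3. The same held for Ctsh, Col9a2, Col9a3, Fbn1 and Vcan, all called lower with the block. The part of RPE RNA in these differences was not tested. The lists were chosen with earlier results of these data known, so their shares beside those of all genes are a description only. In all, 7 of the 129 genes on the 10 lists, or 5.43%, had an edgeR p under 0.05, 1 higher and 6 lower, beside 1.61% of all genes. A block for the mouse gave 20 of the 129, or 15.5%, beside 7.23%. The count rested on single libraries. It was 0 without FDM 1, 3 without FDM 3, 3 without Control 2, 2 without Control 3 and 17 without Control 1, beside 0.947%, 1.12%, 3.16%, 0.838% and 5.42% of all genes. None (0) of the 129 genes had an adjusted p under 0.05 in the edgeR fit without the block.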

How the data were processed

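The authors trimmed the reads of these retinal polyA libraries with Trimmomatic 0.39, quantified transcripts of GRCm38 with Salmon 1.10.1 and deposited estimated counts per gene as whole numbers. They excluded 1 FDM library because of duplicated reads. The authors also deposited counts normalized in DESeq2, a signal whose ratio to the estimated counts varies between genes of a library. How these factors were made is not given in the sources used here.

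A gene was tested where 2 or more libraries held over 10 counts (17432 genes), with edgeR 4.0.16 in R 4.3.3, by the quasi-likelihood test after TMM normalization, without covariates. The standard error came from the fold change and the F statistic of each gene, and 95% intervals from the t quantile of the fit. The threshold was an unadjusted p of 0.05, and Benjamini-Hochberg adjustment ran over all genes. The alternatives were DESeq2 1.42.0, limma 3.58.1 (log2 of the normalized counts plus 1 or 0.1), other scalings and filters, blocks for the mouse, and the omission of each library. The mouse numbers come from the study's sequencing metrics. Across genes, deviations from the group means correlated at 0.258 for FDM 1 with Control 1 and at 0.125 for FDM 3 with Control 3, but also at 0.155 for FDM 3 with Control 2, from another mouse, so the pairing rests on the mouse numbers and not on these values. Exon lengths and gene coordinates are from GENCODE M21. The scripts were tested on simulated counts.

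The genes and lists were chosen with earlier results of these data known. The rule for named genes took the 9 genes, the genes called in each list or else its smallest p, and the profiles nearest to the most variable of the 9. Lrp1, P4ha1, App, Aplp1, Sco1, Rpe65, the RPE markers beside Lrp2, the overlapping genes, list genes called with the block alone and the comparison by exon length were added after values were seen.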

Additional observations from a re-analysis of the deposited data

How the results depend on the processing

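Of 134 single-gene values under 15 alternatives, 118 kept their direction and their side of the threshold. The number of genes called was 281 and moved to 172 with DESeq2, 498 with no count filter, 1261 with the mouse as a replicate block, 439 with a block by the numbers of the sample titles, and to between 146 and 944 as single libraries were dropped. Genes with an edgeR adjusted p under 0.05 are given only for fits with 2 or more libraries in each group. They numbered 54 with the mouse as a block, 128 with the block by sample titles and 12 without Control 1. None of them was among the 9. Of the 9 genes, 0 were called in all but 2 alternatives. The title block called 1, Lrp2, at a log2 fold change of -0.37 (unadjusted p = 0.0160, adjusted p = 1.0 from edgeR). Dropping single libraries called between 0 and 2, the 2 being Lrp2 and Cpsf1 without Control 1. Signs turned as follows. With the block by mouse, the values were 0.068 for Zfp644, -0.097 for Sco2 and 0.064 for Lrp2. With the authors' factors, Sco2 was at -0.0079 and Lrpap1 at 0.044, and in limma Sco2 was at -0.00055 and -0.00050 and Lrpap1 at 0.047 with either pseudocount. With single libraries dropped, Zfp644 ran from -0.25 to 0.075, Sco2 from -0.090 to 0.14, Lrpap1 from -0.063 to 0.0031 and Lrp2 from -0.63 to 0.066. The block by mouse has 1 residual degree of freedom among 5 libraries. Where 1 FDM library remained, it was assumed to vary like the controls. Slc39a5 could not be tested with more than 10 counts required in every library. The causes of these shifts were not tested.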
